A study of Homo sapiens with 6 samples.

Results

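The guanylate binding proteins (GBPs) are large GTPases that cells make in response to interferons, and the family was examined here in HEL cells, a human erythroleukemia cell line. The study compared HEL cells transduced with a lentiviral small hairpin RNA against TMIGD2 (shTMIGD2, 3 libraries) with HEL cells carrying a control hairpin (shCtrl, 3 libraries). All cells had therefore been transduced, the sources do not say which of the study's hairpins against TMIGD2 was sequenced, and no interferon is named in the culture medium. The labels number the libraries of each group as biological replicates, and poly(A)-selected RNA was sequenced. Members were selected on gene symbol, GBP1 to GBP7, and all 7 had a row among the 31999 genes of the deposited table. The family itself was proposed with the authors' comparison of the 2 groups in that table in view, and the values of that comparison were not used here. What was used is 1 value per gene, the authors' mean level over all 6 libraries. This mean has no spread between libraries, so no difference between shTMIGD2 and shCtrl could be measured or tested from it. TMIGD2 itself had a mean level of 16.9 CPM (counts scaled to a common library total) over both groups, which does not check the knockdown.

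Interferons bind receptors that signal through JAK kinases to STAT transcription factors, and interferon gamma in particular is known to induce GBP genes through STAT and IRF factors. The GBP proteins bind and hydrolyse guanine nucleotides, assemble on the membranes of intracellular microbes, and help to activate caspase-4 and inflammasomes. GBP1, GBP2 and GBP5 carry a lipid anchor that prenylation enzymes attach to a C-terminal CaaX box, a cysteine followed by 3 residues, and the other members lack it.

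The 7 genes form a cluster of 381482 bases on chromosome 1, from 89006679 to 89388160 (GRCh38, GENCODE 44). GBP3 opens the cluster at 89006679 to 89022894, followed by GBP1 at 89051882 to 89065360 and GBP2 at 89106132 to 89150456. GBP7 lies at 89131742 to 89176009, GBP4 at 89181144 to 89198942, GBP5 at 89256189 to 89272860 and GBP6 at 89364059 to 89388160. The first 6 are on the minus strand and GBP6 alone is on the plus strand. In this annotation GBP2 and GBP7 overlap by 18715 bases on the same strand. All are protein-coding, with 11 exons in the reference transcript except for GBP5, which has 12. The reference transcript is the MANE Select transcript, on which RefSeq and Ensembl agree.

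The coding sequences show what the members share and where they part. The 24 bases below, from the MANE Select transcripts in GENCODE 44, encode the P-loop, the stretch of a GTPase that grips the phosphates of the nucleotide. Capitals mark the 3 codons of its glycine, lysine and serine. The stretch begins at coding base 133 in every member except GBP4, where it begins at base 178.
GBP1: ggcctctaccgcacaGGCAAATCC
GBP7: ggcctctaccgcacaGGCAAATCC
GBP2: ggcctctatcgcacaGGCAAATCC
GBP3: ggcctctaccgcacaGGAAAATCC
GBP5: ggcctctatcgcactGGCAAATCC
GBP4: gggctataccgcacaGGAAAATCC
GBP6: ggactgtaccgtacaGGGAAATCC

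GBP1 and GBP7 had the same 24 bases, and GBP5 and GBP6 differed most, at 6 of the 24. The 7 members thus had 6 distinct P-loop sequences, each found once in its coding sequence.

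At the other end of the coding sequence the members fall into 2 kinds. The last 33 coding bases are shown for 6 members, with the 4 codons before the stop codon in capitals.
GBP1: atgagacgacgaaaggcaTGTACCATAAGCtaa
GBP2: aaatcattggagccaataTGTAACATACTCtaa
GBP5: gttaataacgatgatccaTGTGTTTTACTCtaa
GBP3: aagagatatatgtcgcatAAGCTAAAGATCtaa
GBP4: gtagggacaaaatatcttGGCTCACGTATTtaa
GBP6: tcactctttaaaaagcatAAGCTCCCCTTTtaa

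In GBP1, GBP2 and GBP5 the 4th codon from the stop was TGT, a cysteine codon, at the place where the CaaX box begins. GBP3, GBP4 and GBP6 had AAG, GGC and AAG there, none of which encodes cysteine. The encoded proteins range from 586 residues for GBP5 to 640 for GBP4.

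Over the whole coding sequence, the 21 pairs of members shared between 66.0% and 91.7% of their aligned bases, with a median of 69.4%. GBP1, GBP2, GBP3 and GBP5 were alike at 74.2% to 91.7%, and GBP4, GBP6 and GBP7 at 77.3% to 85.5%. The 12 pairs across these groups were at 66.0% to 70.2%. The closest pair was GBP1 and GBP3 (91.7% over 1773 aligned bases), followed by GBP4 and GBP7 (85.5% over 1878).

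**Figure D1:**
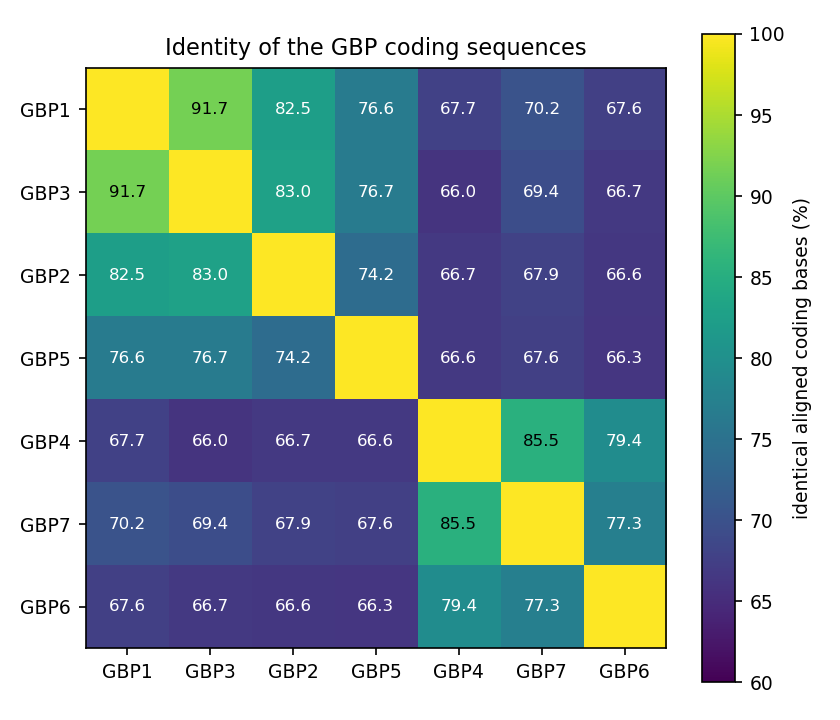
Identity of the coding sequences of the 7 GBP genes, as the percentage of aligned bases that are the same (colour and printed value, for each pair of genes on the axes). The block of GBP1, GBP3, GBP2 and GBP5 and the block of GBP4, GBP7 and GBP6 stand apart, with at most 70.2% between them.

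GBP4 had the highest mean level of the family. Its authors' mean was 6.91 on the log2 CPM scale, or 120.4 CPM, and 19.6 CPM per kilobase of its 6141-base transcript. GBP1, the member best known for binding bacterial lipopolysaccharide, came next with 20.6 CPM and 7.15 CPM per kilobase. GBP3, the closest relative of GBP1 in sequence, had 9.33 CPM and 3.07 CPM per kilobase. These 3 genes held most of the summed level per kilobase of the family, with 60.2% for GBP4, 21.9% for GBP1 and 9.42% for GBP3.

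The levels per kilobase of the other 4 members were lower. GBP5, known as a promoter of NLRP3 inflammasome assembly and as a restriction factor for retroviruses, had 9.94 CPM. Its 6812-base transcript is the longest of the family, and its level per kilobase was 1.46 CPM. GBP2 had 3.75 CPM and 0.918 CPM per kilobase, and GBP7 0.835 CPM and 0.344 CPM per kilobase. GBP6 had 0.153 CPM and 0.0326 CPM per kilobase, and its CPM was 2.07 times the lowest value listed for any gene, 0.0736 CPM, which 154 genes shared. The level of GBP6 was therefore close to the floor of the table. A mean level of at least 1 CPM was found for 5 of the 7 members, without GBP6 and GBP7. Of all 31999 genes listed, 14000 (43.8%) reached this level. The protein-coding genes among them had a median of 3.64 on the log2 CPM scale, which is above 1 CPM.

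Per kilobase the order of the mean levels was GBP4, GBP1, GBP3, GBP5, GBP2, GBP7 and GBP6. The step from one member to the next was 2.74-fold between GBP4 and GBP1, 2.33-fold between GBP1 and GBP3, and 2.11-fold between GBP3 and GBP5. It was 1.59-fold between GBP5 and GBP2, the smallest, then 2.67-fold between GBP2 and GBP7 and 10.6-fold between GBP7 and GBP6. Without division by length GBP5 stood above GBP3 by 1.07-fold. Because the means carry no spread, which of these neighbours differ beyond the variation of the libraries could not be measured. A mean over both groups can also hide unequal levels in shCtrl and shTMIGD2 cells, and an order within 1 group may be another. In bulk RNA a lower level in each cell and fewer cells with the transcript cannot be told apart.

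**Figure D2:**
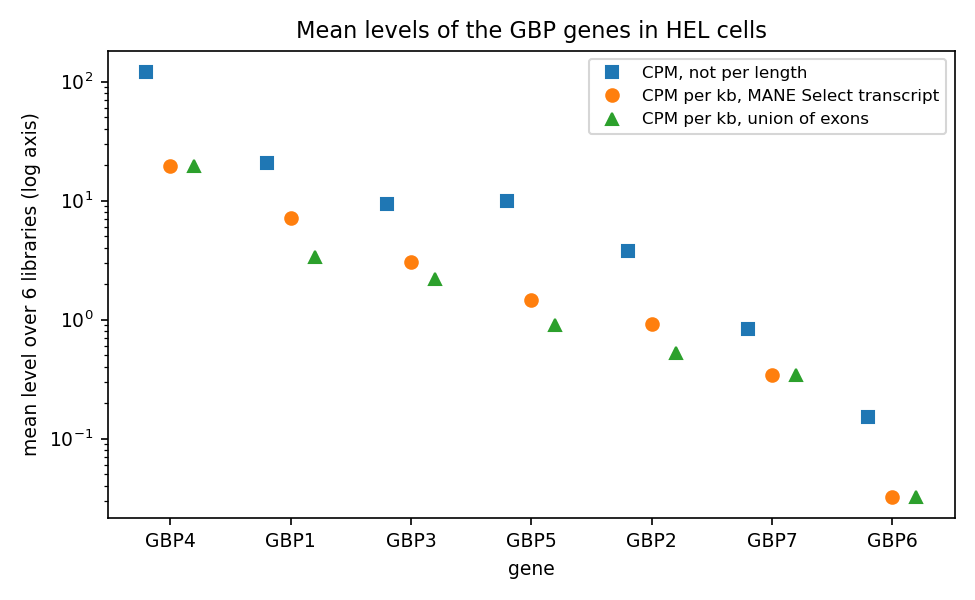
Authors' mean level of each GBP gene over the 6 libraries, on a log axis, in CPM (squares), in CPM per kilobase of the MANE Select transcript (circles) and in CPM per kilobase of all annotated exons (triangles). GBP4 is highest on each scale, with 120.4 CPM, and GBP6 is lowest, with 0.153 CPM. No error bars are drawn because the means have no spread.

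Genes close in sequence were not always close in level. GBP1 and GBP3, the closest pair, differed 2.33-fold in mean level per kilobase. GBP4 and GBP7, which share 85.5% of aligned coding bases and are neighbours in the cluster, differed 57.0-fold. The level of GBP7 was low, at 0.835 CPM, and is uncertain. Stretches of 100 bases found in other genes cover 29.8% of its transcript. GBP4 and GBP6 (79.4%) differed 602-fold, although the level of GBP6 is near the lowest value listed. GBP2 and GBP5 (74.2%) differed least of all pairs, by 1.59-fold. In sum, GBP4, GBP6 and GBP7 had 61.3% of the family's level per kilobase, nearly all of it from GBP4, and GBP1, GBP2, GBP3 and GBP5 had 38.7%. The 3 members with the cysteine codon of a CaaX box had 29.2%, mostly from GBP1.

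Against other genes, the family ran from low to moderately high levels. Among 16169 protein-coding genes with a MANE Select transcript, the median mean level was 3.58 CPM per kilobase, and 2 members, GBP4 and GBP1, lay above it. GBP4 was at percentile 78.4 of these genes and GBP1 at 60.5. GBP3 was at percentile 48.1, GBP5 at 40.6, GBP2 at 37.0 and GBP7 at 30.8. GBP6 was at percentile 8.12.

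**Figure D3:**
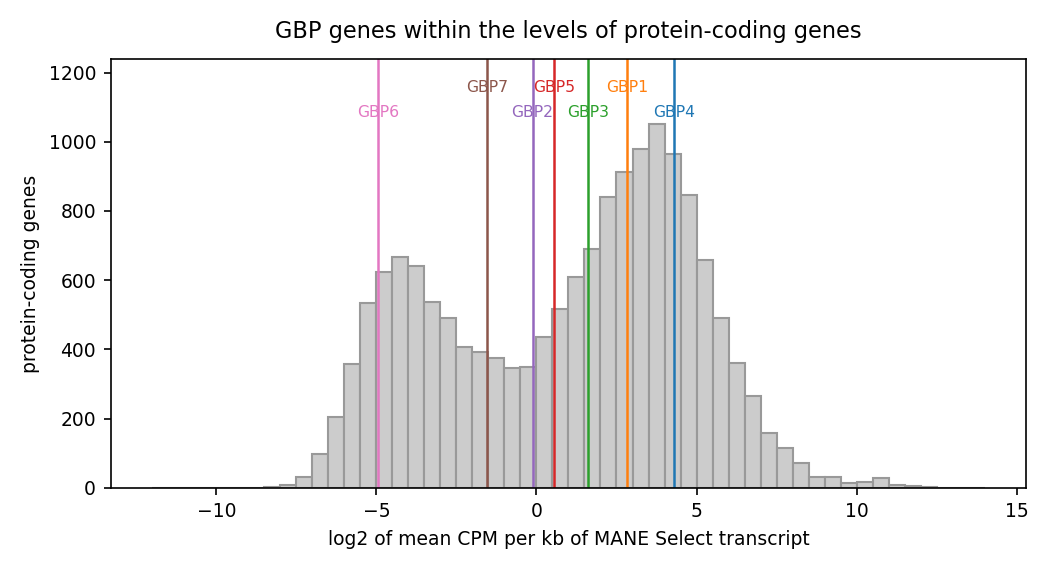
Number of protein-coding genes (vertical axis) by log2 of the mean level in CPM per kilobase of the MANE Select transcript (horizontal axis), with a line at each GBP gene. GBP4, at percentile 78.4, and GBP1, at 60.5, lie above the median, and GBP6 lies within the lower mode of the distribution.

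Members with similar sequences, or members that overlap, can share reads, which makes their counts uncertain. For each member, the share of its MANE Select transcript in stretches of 100 bases found exactly in a transcript of another gene was measured. It was 29.8% for GBP7, of which stretches shared with GBP2 transcripts covered 25.6% of the GBP7 transcript. These lie in GBP2 transcripts other than the MANE Select one, and the 2 genes overlap on the same strand. Their coding sequences are 67.9% identical, and the 25.6% was the same with stretches of 50 and 150 bases. The share was 8.78% for GBP1, all of it shared with GBP1P1, a copy of GBP1 that lies 19519 bases beyond the end of the cluster. For GBP4 and GBP5 it was 4.15% and 2.47%, and for GBP2, GBP3 and GBP6 it was 0%. GBP7 thus had the largest share of the family at this length. GBP4 shared its stretches with CASP10 and with ENSG00000284734, a long noncoding RNA gene on the opposite strand that overlaps its start, and GBP5 with ENSG00000237568, which lies within it on the opposite strand. The libraries were strand-specific, but the strand setting of the counting and the read length are not given in the sources used here. The values of these genes are uncertain to that extent, and the part of shared reads in them was not tested.

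Some other genes in and beside the cluster had a value as well. The one inside the cluster was PTGES3P1, a processed pseudogene, at 9.28 CPM. The nearest listed gene to the left was RBMXL1, 13719 bases from GBP3, at 44.5 CPM. GBP1P1, the nearest to the right, which shares stretches with GBP1, had 2.99 CPM. The part of reads from other genes in the values of PTGES3P1 and GBP1P1 was not tested. The levels of the other 9 annotated genes inside the cluster were not analysed here.

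Promoter sequences of 5 members, GBP1, GBP3, GBP4, GBP6 and GBP7, were matched by symbol in a RefSeq table (GRCh38.p14), as 250 bases before to 50 after the RefSeq start of each gene. GBP2 and GBP5 had no match. The windows were searched on both strands for the core of the interferon-stimulated response element (ISRE), GAAANNGAA, which factors of the IRF family recognise, and for the gamma-activated site (GAS), TTCNNNGAA, which STAT dimers recognise. The ISRE core was in the windows of GBP1, GBP3 and GBP4, and in 8.11% of all 35116 promoters. The GAS letters were in the window of GBP3 only, and in 7.66% of all promoters. No ISRE core overlapped these GAS letters. Only these exact letters were searched, so a GAS or ISRE with other letters would be missed in any window, that of GBP1 included. With only the bases before the start, 1 of the 5 genes, GBP1, held an ISRE core, since that of GBP4 spans the start and that of GBP3 lies after it.

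An ISRE core is shown for each of these 3 genes because the same letters recur between them. It is given with 10 bases on each side, 5′ to 3′ on the minus strand. For GBP1 this is the core before the start, since a core nearer the start lies too close to the window's end to show 10 bases on each side. Capitals mark the core, read here on its reverse strand. The GBP1 stretch lies at chr1:89065316-89065344 (its core begins 126 bases before the start), the GBP3 stretch at chr1:89022845-89022873 (4 bases after the start) and the GBP4 stretch at chr1:89198927-89198955 (3 bases before the start).
GBP1: acgaagtactTTCAGTTTCatattactct
GBP3: aagaagtactTTCAGTTTCattaggctct
GBP4: tgcatgtcctTTCAATTTCggttctcaca

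The GBP1 and GBP3 windows shared a run of 19 bases, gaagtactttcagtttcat, which holds the core. It was the longest run that any pair of the 5 windows shared, and the next was 13 bases between GBP1 and GBP7, without a core. The printed core of GBP1 lies further from its RefSeq start than that of GBP3. The second ISRE core in the GBP1 window, which is not printed, is nearer and begins 38 bases after the start. The GENCODE annotation of GBP1 begins at 89065360, before the core that is printed, so that the distance depends on the start that is used. For GBP3, the GAS letters begin 15 bases before the RefSeq start, beside the ISRE core. The GENCODE annotation of GBP3 begins at 89022894, so these GAS letters lie after that start. The 30 bases around the RefSeq start of GBP3 (chr1:89022852-89022881, minus strand) show both motifs, with the GAS and then the ISRE core in capitals and 15 bases on each side of the start.
GBP3: TTCCTTGAAagaagtactTTCAGTTTCatt

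Genes that act upstream of the GBP genes, or with the proteins, were also measured, as mean levels over both groups. Of 7 interferon receptors and receptor kinases all had at least 1 CPM, with a median of 25.1 CPM per kilobase. In lists of more than 5 genes, those with the highest and lowest CPM of the genes reported here are named. Per kilobase, other genes of a list can lie beyond them. JAK2, the kinase of the interferon gamma and erythropoietin receptors, had 55.9 CPM per kilobase, and IFNAR2, a chain of the type I interferon receptor, had 1.31. Of 6 transcription factors and regulators, 5 had a value and 4 had at least 1 CPM. STAT2, a factor of the type I interferon response, stood at 18.1 CPM per kilobase and IRF9, its partner there, at 0.585. The level of STAT2 per kilobase was thus close to that of GBP4, and that of IRF9 was below those of all GBP genes except GBP7 and GBP6. The 5 interferon genes IFNG, IFNB1, IFNA1, IFNA2 and IFNL1, and the regulator IRF8, had no value under these symbols and were not analysed.

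The enzymes that lipid-modify CaaX proteins were all expressed, at 41.2 CPM per kilobase for FNTA, the shared alpha subunit, 3.04 for FNTB, the farnesyltransferase beta subunit, and 2.73 for PGGT1B, the beta subunit of its geranylgeranyl counterpart. RCE1 and ICMT, which trim and methylate the prenylated end, had 17.2 and 18.7 CPM per kilobase. Of 7 inflammasome and pyroptosis genes, 6 had at least 1 CPM, with a median of 6.19 CPM per kilobase. CASP4, the caspase that GBP coats on bacteria activate, had 57.2 CPM per kilobase, and CASP5 had 0.496.

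Of the other large GTPases, the interferon-induced antiviral proteins MX1 and MX2 had 0.679 and 11.7 CPM per kilobase. The atlastins, which shape the endoplasmic reticulum and are relatives of the GBPs, had 0.175 (ATL1), 20.8 (ATL2) and 10.1 (ATL3) CPM per kilobase, so that ATL2 stood close to GBP4. IRGQ had 1.45 CPM per kilobase, close to GBP5, and IRGM, the human immunity-related GTPase, had 0.0621, near GBP6. At 0.105 CPM, IRGM was like GBP6 close to the lowest value listed, 0.0736 CPM, so their likeness is uncertain. RNF213 had no value under this symbol and was not analysed.

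**Figure D4:**
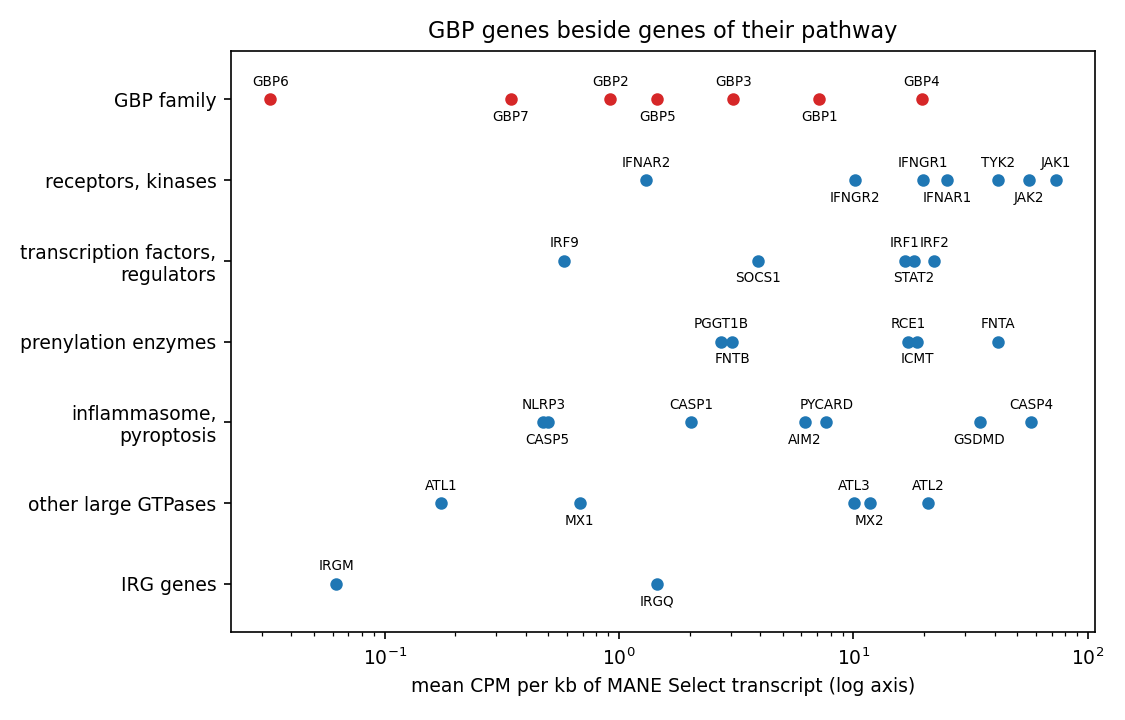
Authors' mean level over the 6 libraries of the GBP genes (red) and of the other gene lists (blue), in CPM per kilobase of the MANE Select transcript on a log axis. Each group of genes has 1 row. The blue rows hold genes that act upstream or with the proteins, and other GTPases. The GBP genes run from 0.0326 for GBP6 to 19.6 for GBP4, while JAK2, the highest of its row in CPM but not per kilobase, stands at 55.9.

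The markers of the labelled cell type were high: all 8 erythroid and megakaryocyte markers had between 45.8 and 1490 CPM. Of the lists for other cells, the T cell marker CD8A had 0.210 CPM, and the 3 macrophage and 3 fibroblast markers reached at most 1.19 and 0.574 CPM. CD3D, CD3E and the B cell marker MS4A1 had no value under these symbols and were not analysed. Of the B cell list CD79A had 5.01 CPM. Of the endothelial list PECAM1 had 151.6 CPM, while CDH5 had 1.24 CPM and VWF had 0.153 CPM. All libraries are labelled as cells of the HEL line, and a part of other cells in the GBP levels was not tested.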

How the data were processed

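RNA of 3 shCtrl and 3 shTMIGD2 HEL libraries was sequenced, and libraries were grouped by their labels. The authors aligned reads to hg38 with STAR 2.6.1b and counted fragments per gene with HTSeq 0.6.1 on a refSeq annotation. The deposited edgeR table holds, for each gene, a mean log2 CPM, made by the authors. That it covers all 6 libraries follows edgeR's convention for this column of the authors' table, and its prior count and scaling are not given in the sources used here. It also holds 4 columns of the authors' own comparison (log2 fold change, F, p-value and adjusted p-value), which were not used. No column gives a library's value, so the planned tests were not run, and depth per library is unknown.

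CPM was computed as 2 to the power of the mean, and divided by the length of the MANE Select transcript (GENCODE 44, GRCh38). Of the gene names listed, 22987 (71.8%) matched GENCODE by symbol, among them all members. Percentiles give the share of genes with a lower level. Coding sequences were aligned end to end with Biopython 1.88 (match 1, mismatch -1, gap opening -4, extension -0.5). Stretches were compared on both strands with all GENCODE transcripts, after a check on made-up sequences. Python 3.11.15 was used.

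Named genes were the members, the genes of the cluster (those without a value mostly by their number) and the nearest on each side, TMIGD2, and of each pathway list the genes with the highest and lowest mean CPM, or all of a list of at most 5. This rule did not cover the cell type markers, which are given by ranges and by examples chosen after their values were seen. Members and lists were chosen with earlier results of these data known. The groups of members by identity were formed after it was computed. Some list genes and a sequence are not reported here.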

Additional observations from a re-analysis of the deposited data

How the results depend on the processing

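GBP4 remained the highest member under each length tried. Its share of the summed level of the family was 60.2% per kilobase of MANE Select transcript, 72.7% with the union of all annotated exons, 65.5% with the longest annotated transcript and 73.0% with no division by length. The order of the members was unchanged under the 2 other lengths, and GBP5 and GBP3 changed places with no division by length. A threshold of 0.5 CPM gave 6 members, with GBP7, and one of 2 CPM gave 5. The share of all genes at either threshold was not computed. With stretches of 50 bases the share of the transcript shared with other genes was 33.3% for GBP1, above the 32.0% of GBP7, and was 16.5% for GBP4 and 15.4% for GBP3. For GBP4 the stretches were spread over 494 other genes, GBP2 and GBP7 among them. The gene that shared most of them, ENSG00000284734, covered 2.44% of the GBP4 transcript. For GBP3 they were in GBP1, GBP1P1 and GBP2 only. With 150 bases the share was 0% for GBP1 and 25.6% for GBP7. Among all genes listed and in CPM, the percentiles were 94.2 for GBP4 and 32.7 for GBP6. In CPM among protein-coding genes they were 89.1 and 16.0. Ranked only against genes at 1 CPM or above, GBP4 was at 86.8. The percentiles per kilobase were chosen after seeing the data. With only the 250 bases before the RefSeq start, the members with an ISRE core fell from 3 of 5 to 1 of 5 (GBP1). GBP3 kept its GAS letters in this window, which was tried for the members after seeing the data. In that window 6.88% of all promoters held the ISRE core and 6.57% the GAS letters.

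No paired analysis was possible because each gene has a single mean over both groups. For the same reason DESeq2, other normalizations, filters and pseudocounts, and leaving out each library were not run. Depth per library is unknown, so what it limits could not be measured. GBP6 and GBP7 had under 1 CPM.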
